A study of Danio rerio with 2 samples.

Results

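Collagens, laminins, nidogens, fibronectins, hyaluronan link proteins and integrins were followed in single GFP-positive cells of zebrafish embryos. A gene was a member when its name began with col and a digit, with lama, lamb or lamc and a digit, with itga, with itgb and a digit, or with nid1, nid2, fn1 or hapln, in upper or lower case. The expression table held 105 such genes of 27931, of which 74 encode matrix proteins and 31 encode integrin chains. The rule used the gene names and no measured value. Only 20017 of the 27931 genes had a symbol, and members of these families without one were not counted. Low or absent values given below therefore concern the named genes alone. Several members carry the human symbol in capitals, and where a symbol was shared the last 5 digits of the Ensembl gene ID tell the genes apart, as in FN1 (06526) and FN1 (19815).

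The basement membrane is a thin sheet of extracellular matrix under epithelia and around vessels. Collagen IV forms a network there, laminins assemble from an alpha, a beta and a gamma chain, and nidogen and perlecan tie these networks together. Cells bind matrix through integrins, each an alpha chain paired with a beta chain, so that alpha5 with beta1 binds fibronectin and alpha6 with beta1 or beta4 binds laminin. Link proteins of the Hapln family fasten proteoglycans to hyaluronan, a sugar polymer of the embryonic matrix.

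The embryos carried the transgene Tg(-2.3 etv2:GFP)zf372, in which a stretch of the promoter of etv2, a transcription factor of vascular and blood precursors, drives GFP. Untreated embryos, kept at 28.5 °C by the labels, were sampled at 15-18 somites and at 20 somites, and 48 GFP-positive sorted cells of each stage were profiled on a Fluidigm C1 chip, which gives 1 full-length cDNA library per cell. Each stage was 1 sample of pooled embryos, so stage, collection day and chip cannot be told apart. The cells of 1 stage share their sample and are not replicates, and no test was made and no p-value is given.

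The authors had sorted the 96 cells into 8 populations, whose names are used here. With cells at 15-18 and at 20 somites these were erythrocytes (2 and 3), epithelial (6 and 4), tailbud (14 and 14), endothelial progenitor cells or EPC (8 and 6), venous (4 and 4), arterial (10 and 3), EC2, a further endothelial group (2 and 5), and macrophages (2 and 9). Although the labels describe all cells as vascular endothelial, 54 of 96 lay outside the 4 endothelial populations. The 6 endothelial markers that were matched, of 8 listed, had mean levels of 7.15 to 9.15 in EPC, venous, arterial and EC2 cells and at most 2.54 elsewhere, on the log2 scale defined below. Erythrocyte, epithelial and macrophage markers were likewise highest in the populations of those names, but the tailbud markers reached only 1.25 in the tailbud population. The arterial markers did not separate arterial cells (6.86) from EC2 (7.06). In 14 of 96 cells at least 2 endothelial markers and at least 2 markers of epithelium, macrophages or erythrocytes exceeded 10 TPM, a unit defined below. Of these, 3 were EPC, 2 venous, 4 arterial, 1 EC2, 3 tailbud and 1 epithelial. The epithelial list holds krt8, which was detected in 42 of 42 endothelial cells, so that 1 further marker could meet the epithelial rule there, and with krt8 left out 9 cells met the whole rule. A further 12 cells had at least 2 markers of any 2 of the 4 classes, among them 3 of 5 erythrocytes and 5 of 11 macrophages with markers of both of these, and were kept throughout. In the tailbud population at least 2 endothelial markers exceeded 10 TPM in 8 of 28 cells. At least 2 epithelial markers did so in 6 of its cells, erythrocyte markers in 6 and macrophage markers in 4. A cell can count in several of these classes. Tailbud values given below include these cells, and whether they hold the high values of that population was not tested. No doublet caller was run. The main counts of calls are also given without the 14 cells with endothelial and other markers. These counts have no share of all genes beside them, so their changes cannot be set against all genes.

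Expression was read as TPM, transcripts per 1000000, a share of a cell's transcripts corrected for gene length. A gene was called detected in a cell above 1 TPM. Its level in a population was the mean of log2(TPM + 1) over the cells of each stage, with both stages weighted equally, and a difference is a difference of such levels. This scale understates the change of low genes. A gene was called higher or lower when the difference was at least 1 in the same direction at both stages. The populations had been clustered on these same cells, 16 members stood in the authors' marker table, and col4a1 and hapln3 helped to name EC2, so contrasts between populations are descriptions. A count of 0 cells allows a share of up to 3 counts of the total, which is 60% for 5 erythrocytes, 30% for 10 epithelial cells and 10.7% for 28 tailbud cells. Such limits and intervals cover the counting of cells alone, which share their sample.

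Of the 105 members, 67 were detected in at least 5 of 96 cells, namely 46 matrix and 21 integrin genes. A further 22 were detected in 1 to 4 cells and 16 in none. The 67 genes were each found in a median of 21 cells, against 23 for all 15147 genes that passed the same filter. The broadest were col1a1a and HAPLN1, each in 69 cells.

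The epithelial cells carried the most matrix transcripts. Summed over the matrix members, the median cell held 3134 TPM in the epithelial population, 1071 in EC2, 761 in arterial, 702 in EPC, 526 in venous, 463 in tailbud, 264 in erythrocytes and 220.2 in macrophages. The lowest epithelial cell (1906 TPM) lay above every erythrocyte, EPC, venous, EC2 and macrophage cell, but below the highest arterial (2025) and tailbud (3511) cells. Integrin transcripts followed another order, with medians of 677 TPM in epithelial, 483 in arterial, 293 in venous, 275 in macrophages, 158 in EPC, 142 in EC2, 86.7 in tailbud and 10.8 in erythrocytes. The epithelial range of 116 to 1339 TPM overlapped the arterial range of 18.8 to 1359 nearly in full.

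The gene that led the matrix sum differed between populations, with 5 leaders among 8, but in erythrocytes and macrophages the lead was narrow. Shares of the matrix and integrin sums were taken from mean TPM, with both stages weighted equally, so a single cell can weigh much. In epithelial cells col18a1a, a basement membrane collagen of type XVIII, made up 30.8% of it. In arterial cells lama4, the laminin alpha4 chain, made up 30.0%. The link protein gene HAPLN1 led in EC2 (33.5%), EPC (32.4%) and venous cells (25.1%). In the tailbud population and in erythrocytes FN1 (06526), a fibronectin gene, led with 29.8% and 31.6%, and in macrophages FN1 (19815) and col17a1b took 24.8% and 24.7%. However, col17a1b was detected in only 5 of 11 macrophages, with a median of 0 and a highest value of 240 TPM. HAPLN1 lay close behind the leaders in both blood populations, with 31.2% in erythrocytes and 23.97% in macrophages. The order of the leading genes in these populations is therefore not settled.

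Against the mean of the other 7 populations, 24 of the 67 members (35.8%) were called higher in epithelial cells, where 6.64% of all genes were. The counts were 10 in EC2 (14.9%, all genes 9.56%), 8 in arterial (11.9%, all genes 6.02%), 4 in venous (5.97%, all genes 5.9%) and 3 in EPC (4.48%, all genes 4.79%). Macrophages and erythrocytes had 2 each (2.99%), where all genes gave 10.2% and 13.7%, and the tailbud population had 0 where all genes gave 0.172%. Members called lower numbered 8 in epithelial (11.9%, all genes 7.67%), 18 in erythrocytes (26.9%, all genes 10.5%), 12 in macrophages (17.9%, all genes 6.77%), 6 in tailbud (8.96%, all genes 13.3%), 5 in venous (7.46%, all genes 5.68%), 5 in EC2 (7.46%, all genes 4.3%), 4 in arterial (5.97%, all genes 5.49%) and 0 in EPC (all genes 2.86%). The epithelial share of higher calls thus lay far above its background. Those of EC2 and arterial cells lay somewhat above theirs, on counts of only 10 and 8 genes. The 10 genes of EC2 include col4a1 and hapln3, which helped to name it. The shares of venous cells and EPC lay near their backgrounds, and those of both blood populations below. Without the 14 cells with endothelial and other markers the counts of higher calls changed by at most 1, to 23 in epithelial and 5 in venous cells. Arterial cells then lost LAMB1 and itga6a and gained lamc1 and NID2, and EC2 lost ITGA9 and gained itga6b. The lower calls became 5 in epithelial cells, without lama4, hapln3 and ITGA9, 3 in EPC, 6 in arterial, 6 in EC2, 7 in venous, 7 in tailbud, 11 in macrophages and again 18 in erythrocytes. The tailbud population was also the one with the fewest genes detected per cell, with a median of 3960.5 genes against 5121.5 to 5918 in the others. What part this played in its count was not tested.

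**Figure D1:**
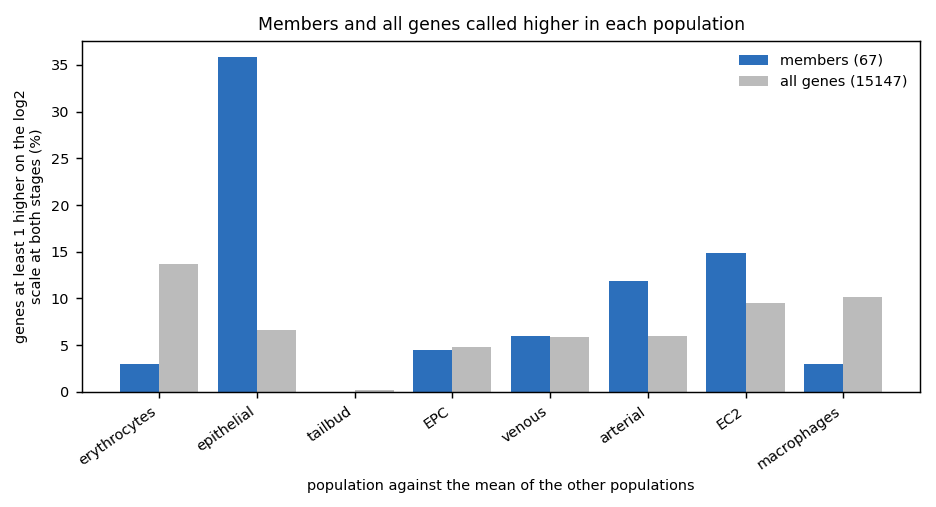
Share of genes called higher in each population against the mean of the other populations, in percent, for the 67 members (blue bars) and for all 15147 genes (grey bars). The epithelial bar of the members reaches 35.8% beside 6.64% for all genes, while in erythrocytes and macrophages the members' bar (2.99%) is the lower of the pair. All 96 cells are included.

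In the 4 endothelial populations against the other 4, 11 of 67 members were called higher (16.4%, all genes 8.56%) and 7 lower (10.4%, all genes 5.29%). The genes called higher were the collagen genes col4a1, col4a2, COL8A2 and col19a1 (76163), the laminin genes lama4 and lamc1, NID2, both HAPLN1 and hapln3, and the integrin genes ITGA5 and ITGA9. Those called lower were col4a5, col7a1, col7a1l (93135), col14a1, col18a1a, col28a2a and lama5, all of them matrix genes and all highest in epithelial cells. The other 4 populations entered as a plain mean that holds the epithelial level. These calls therefore do not show that endothelial levels lay below those of tailbud or blood cells. Over the 46 matrix genes the differences averaged 0.11 with a median of -0.035, so their mean and median differed in sign. The 15 measured basement membrane genes (collagens IV and XVIII, laminins and nidogens among them) averaged 0.63, against 0.15 over all genes, and held 5 genes called higher and 3 called lower. Without the 14 cells with endothelial and other markers 11 were again higher and 7 lower, of which 10 and 6 were the same genes, with col15a1b gained and col19a1 (76163) lost above, and FN1 (06526) gained and lama5 lost below.

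**Figure D2:**
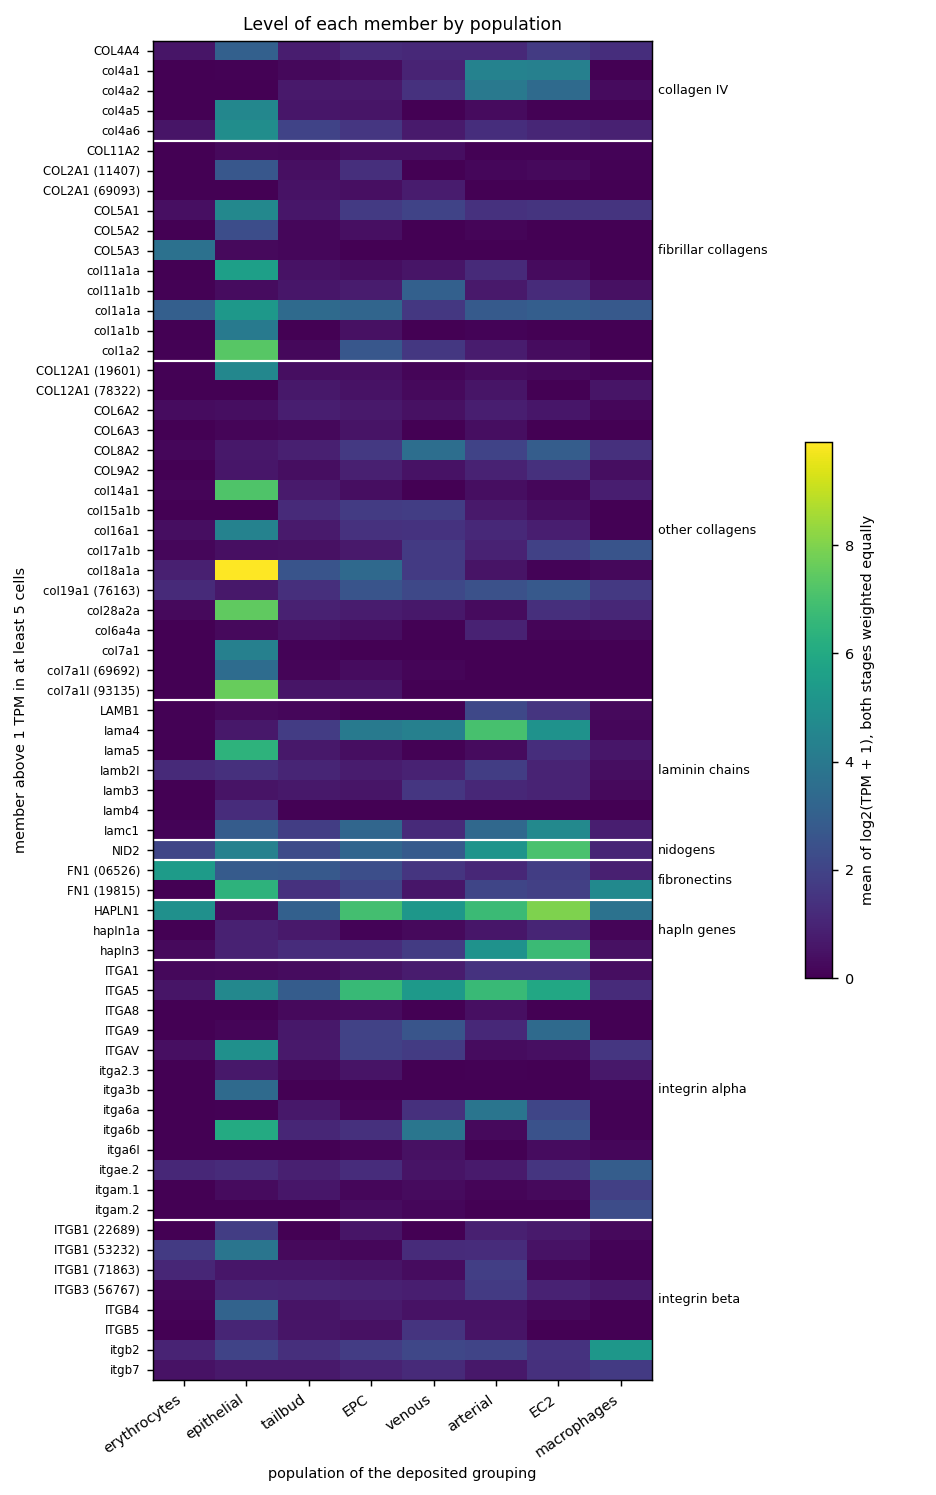
Level (mean log2(TPM + 1), both stages weighted equally, colour scale) of the 67 members that passed the filter in each of the 8 populations, with matrix genes above integrin genes. The epithelial column holds the highest level of 28 of the 67 genes (41.8%, all genes 11.9%), and the brightest field is col18a1a there, at 9.90.

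Collagen IV was divided between arterial and EC2 cells and epithelial cells by chain. The chains alpha1 and alpha2, which join in the collagen IV of most basement membranes, are encoded by col4a1 (ENSDARG00000055009) and col4a2 (ENSDARG00000020781). In arterial cells col4a1 was detected in 6 of 10 cells at 15-18 somites (lowest 0, median 27.3, highest 331 TPM) and in 3 of 3 at 20 somites (6.39, 33.8 and 80.5 TPM). In EC2 it was detected in 1 of 2 cells at 15-18 somites (0 and 96.9 TPM) and in 5 of 5 at 20 somites (9.58, 37.4 and 169 TPM). Every stage therefore held cells with much col4a1 transcript in both populations, and at 15-18 somites both also held cells with none. In the other endothelial cells its level was low, at 0.34 in EPC and 1.0 in venous cells against 4.40 in arterial and 4.32 in EC2. It was detected in 0 of 5 erythrocytes, 0 of 10 epithelial cells and 0 of 11 macrophages. The endothelial difference of col4a1 was 2.0 at 15-18 somites and 2.90 at 20 somites, and that of col4a2 was 1.90 and 2.35. Both genes were detected together in 15 of 42 endothelial cells, 4 had col4a1 alone, 7 had col4a2 alone and 16 had neither. Of the cells with neither, 9 were EPC, 5 venous, 1 arterial and 1 EC2. Both were found in 8 of 13 arterial and 5 of 7 EC2 cells.

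The alpha5 and alpha6 chains showed the opposite order. In epithelial cells col4a5 (ENSDARG00000052063) was detected in 5 of 6 cells at 15-18 somites (0, 51.3 and 114 TPM) and in 3 of 4 at 20 somites (0, 66.9 and 226 TPM). Its level was 4.59 in epithelial cells and 0.62 or less in each of the other populations, and the endothelial difference was -1.08 and -1.07 at the stages. The partner gene col4a6 (ENSDARG00000052061) reached 4.84 in epithelial cells but was also found at low values elsewhere, with 2.01 in the tailbud population and 0.55 to 1.55 in the rest. Both chains were detected together in 8 of 10 epithelial cells and in 0 of 42 endothelial cells. Of these endothelial cells 23 had col4a6 alone and only 1 had col4a5, so the count of 0 follows from the scarcity of col4a5. Of the 5 collagen IV genes that passed the filter, col4a1 and col4a2 were called lower and the other 3, COL4A4 included, higher in epithelial cells, so each of the 5 was called there.

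The laminin alpha chains divided in the same way. In arterial cells lama4 (ENSDARG00000020785), whose chain is typical of vessel walls, was detected in 9 of 10 cells at 15-18 somites (0, 77.8 and 415 TPM) and in 3 of 3 at 20 somites (79.4, 439 and 684 TPM). It was also found in 7 of 7 EC2 cells (6.12, 53.6 and 178 TPM), 6 of 8 venous cells (0, 25.4 and 325 TPM) and 10 of 14 EPC (0, 34.8 and 339 TPM). Its levels ran in the order arterial 7.03, EC2 5.03, venous 4.32 and EPC 4.08, with cells overlapping between all 4 populations. Elsewhere the tailbud level of 1.74 was the highest, with 7 of 28 cells and up to 427 TPM. Of the 28 tailbud cells 8 had at least 2 endothelial markers above 10 TPM, and whether lama4 lay in these was not tested. The endothelial difference of lama4 was 4.21 and 4.71, and its average of 4.46 was the highest of the 67 members.

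In epithelial cells lama5 (ENSDARG00000058543), whose alpha5 chain is the common one of epithelial basement membranes, was detected in 6 of 6 cells at 15-18 somites (74.0, 96.9 and 121 TPM) and in 4 of 4 at 20 somites (55.7, 70.3 and 106 TPM). These cells varied little among themselves, and 2 tailbud cells, the highest at 98.0 TPM, were the others within their range. Its level was 6.40 in epithelial cells and at most 1.31, in EC2, elsewhere. Of the epithelial cells 9 of 10 had lama5 without lama4, and of the endothelial cells 30 of 42 had lama4 without lama5 and 5 had both. The lower call of lama5 in endothelial cells, with differences of -1.33 and -1.49, did not hold without the 14 cells with endothelial and other markers. Its level then fell in EPC, venous and arterial cells. In EC2, left with 1 cell at 15-18 somites, it rose from 1.31 to 2.27.

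The gamma1 chain gene lamc1 (ENSDARG00000036279), shared by most laminins, was spread more evenly. It was detected in 29 of 42 endothelial cells, with levels of 4.67 in EC2, 3.33 in arterial, 3.28 in EPC and 1.17 in venous cells, beside 2.87 in epithelial cells. The endothelial difference was 1.39 and 2.03. Together with lama4 it was detected in 10 of 13 arterial, 6 of 7 EC2 and 8 of 14 EPC but in 0 of 8 venous cells. The gene named LAMB1, for the beta1 chain, was sparse. It was found in 5 of 13 arterial and 3 of 7 EC2 cells and in 0 of 14 EPC and 0 of 8 venous cells. The beta4 chain gene lamb4 was found in 5 cells, all epithelial.

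**Figure D3:**
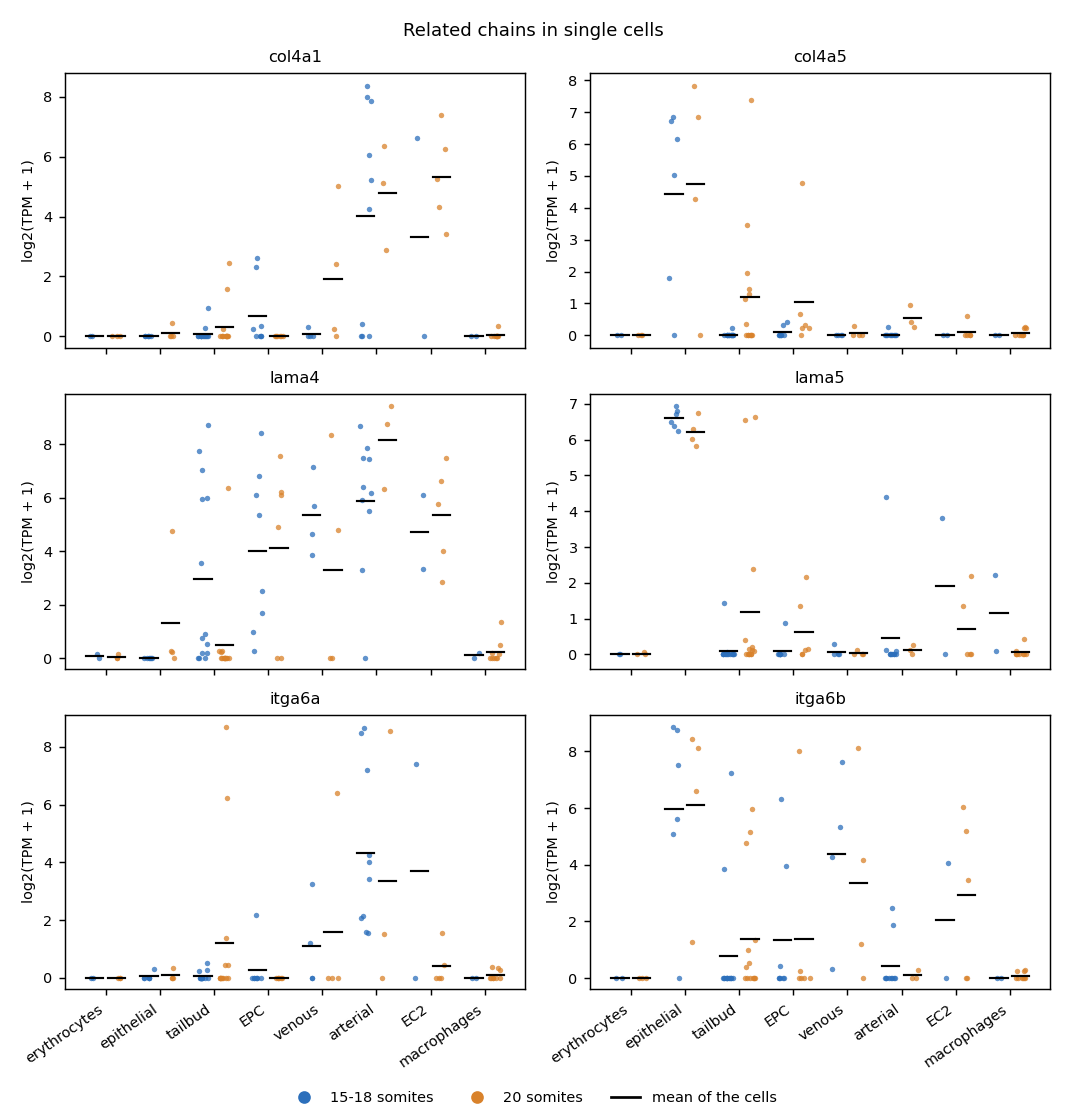
Values of log2(TPM + 1) in each cell for 3 pairs of related genes in the 8 populations, with cells of 15-18 somites in blue, cells of 20 somites in orange and a black line at the mean of each stage. High points of col4a1 lie mostly in arterial and EC2 cells. Those of lama4 lie in all 4 endothelial populations, with 12 of 13 arterial cells detected, and in some tailbud cells. Most cells with itga6a are arterial, but its highest value, 410 TPM, is in a tailbud cell. By contrast col4a5 and lama5 peak in epithelial cells and itga6b in epithelial and venous cells.

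Of the nidogens, NID2 (ENSDARG00000075707) was widely expressed and NID1 almost absent. In EC2 NID2 was detected in 2 of 2 cells at 15-18 somites (67.6 and 172 TPM) and in 5 of 5 at 20 somites (91.9, 163 and 348 TPM). In arterial cells it was detected in 10 of 10 (33.4, 114 and 204 TPM) and in 3 of 3 (3.39, 4.93 and 86.3 TPM). The arterial cells of 15-18 somites thus overlapped EC2, and those of 20 somites lay below its cells of that stage. Levels were 7.05 in EC2, 5.12 in arterial, 4.35 in epithelial, 3.21 in EPC and 2.81 in venous cells, and the endothelial difference was 2.19 and 2.06. NID1 was detected in 4 cells, with 228 TPM in 1 EPC and 64.4 TPM in 1 tailbud cell as its highest values.

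Of the 3 link protein genes that passed the filter, HAPLN1 and hapln3 were called higher in endothelial cells and hapln1a was not called. The level of hapln1a was at most 1.03, in EC2, where it was found in 1 of 7 cells. HAPLN1 (ENSDARG00000068516) was detected in 41 of 42 endothelial cells, in 8 of 8 EPC (19.2, 136 and 854 TPM), 4 of 4 venous (1.34, 81.7 and 185 TPM), 10 of 10 arterial (48.2, 137 and 428 TPM) and 2 of 2 EC2 cells (290 and 605 TPM) at 15-18 somites. At 20 somites it was detected in 5 of 6 EPC (0.348, 195 and 320 TPM), 4 of 4 venous (1.10, 195 and 297 TPM), 3 of 3 arterial (62.5, 70.8 and 164 TPM) and 5 of 5 EC2 cells (41.7, 302 and 430 TPM). These ranges overlapped among the endothelial populations at both stages, apart from the EC2 cells of 15-18 somites, which lay above the venous ones. Epithelial cells stood at the other end, with HAPLN1 in 1 of 10 cells at 3.15 TPM. It was not particular to endothelium, since the levels were 4.95 in erythrocytes, 3.72 in macrophages and 3.04 in the tailbud population against 5.23 to 8.0 in endothelial cells. The endothelial difference was 3.92 and 3.54.

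The relative hapln3 (ENSDARG00000045802) was narrower and lay mainly in arterial and EC2 cells. In EC2 it was detected in 2 of 2 cells (75.8 and 102 TPM) and 5 of 5 cells (3.21, 332 and 469 TPM) at the stages, and in arterial cells in 6 of 10 (0, 10.5 and 658 TPM) and 3 of 3 (63.8, 101 and 142 TPM). At both stages the values overlapped between these populations. Levels were 6.74 in EC2, 5.05 in arterial, 1.73 in venous and 1.25 in EPC, with 1.26 in the tailbud population. HAPLN1 and hapln3 were detected together in 7 of 7 EC2 and 9 of 13 arterial cells, while 9 of 14 EPC and 6 of 8 venous cells had HAPLN1 without hapln3.

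**Figure D4:**
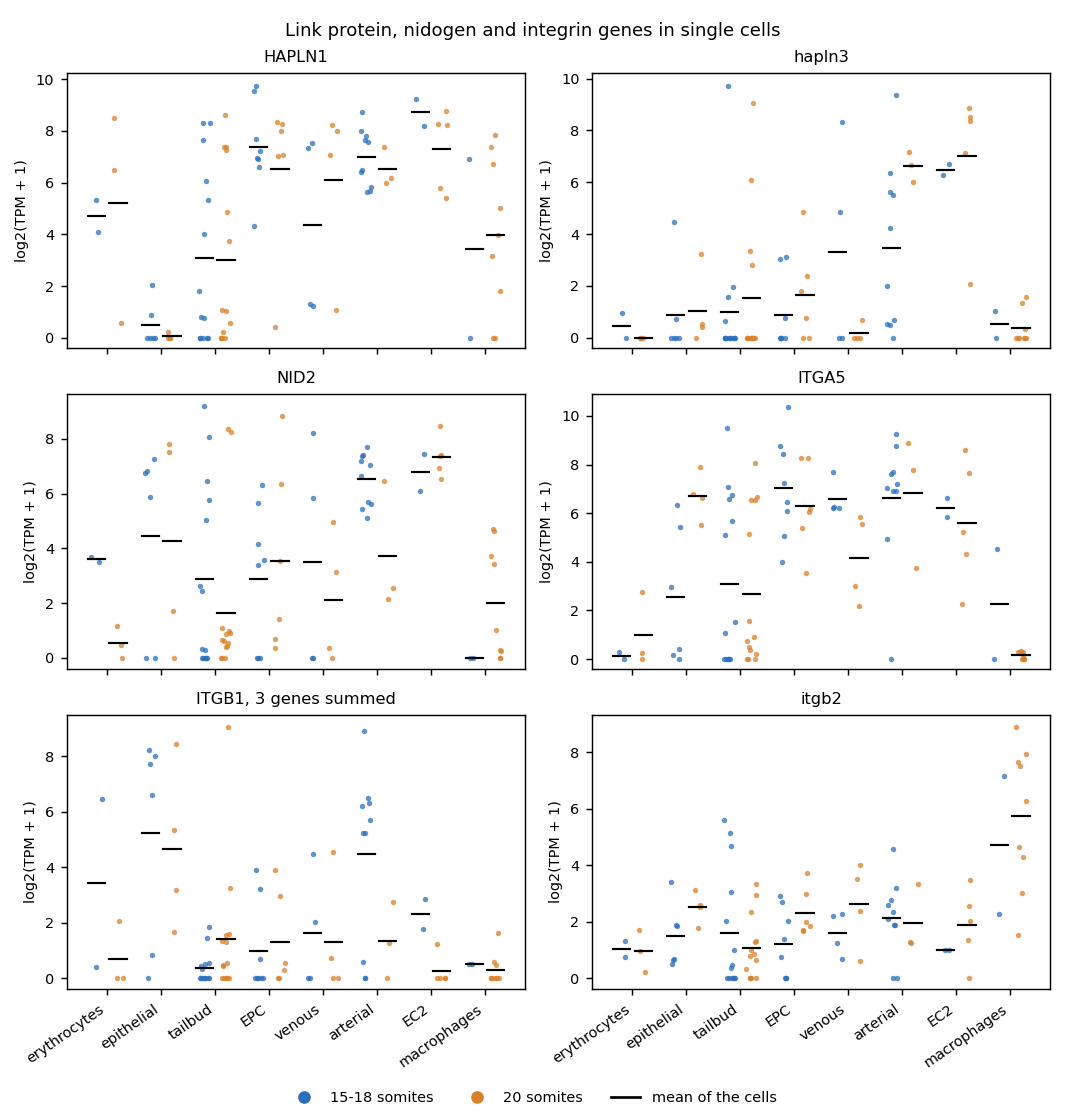
Values of log2(TPM + 1) in each cell for HAPLN1, hapln3, NID2, ITGA5, the summed ITGB1 genes and itgb2, with cells of 15-18 somites in blue, cells of 20 somites in orange and a black line at the mean of each stage. HAPLN1 and ITGA5 were each detected in 41 of 42 endothelial cells, whereas itgb2 has its high values in macrophages, where it was detected in 11 of 11 cells.

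With all cells neither fibronectin gene was called between endothelial and other populations, and the 2 genes parted among the other populations. Endothelial levels were 1.09 to 2.36 for FN1 (06526) and 0.59 to 2.06 for FN1 (19815). The tailbud levels were 2.77 and 1.43. FN1 (06526) had its highest level in erythrocytes (5.42), with 87.3 and 192 TPM in the 2 cells of 15-18 somites and 0.0881, 23.7 and 101 TPM in the 3 cells of 20 somites. Its largest single values were in other populations, with 2533 TPM in 1 tailbud cell and 1465 TPM in 1 epithelial cell. FN1 (19815) was highest in epithelial cells (6.38), where it was detected in 9 of 10 cells, and in macrophages (4.71), where it was detected in 2 of 2 cells at 15-18 somites (3.88 and 13.4 TPM) and in 9 of 9 at 20 somites (11.3, 141 and 262 TPM). Of the erythrocytes 4 of 5 had FN1 (06526) alone, and of the macrophages 7 of 11 had FN1 (19815) alone and 4 had both. The genes share a symbol and their products are alike, so reads could have been divided between them wrongly, and this holds also for the 3 ITGB1, the itgam and the col7a1l genes.

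Fibrillar collagens form the strong fibres of connective tissue and fish skin, and 6 of the 11 that passed the filter were called higher in epithelial cells and 0 lower, where 6.64% and 7.67% of all genes were. For col1a2 (ENSDARG00000020007), an alpha chain of collagen I, the cells held 33.0, 222 and 565 TPM (lowest, median and highest of 6) at 15-18 somites and 83.0, 135 and 342 TPM (4 cells) at 20 somites. Outside the epithelial cells the highest col1a2 values were 186 TPM in EPC and 31.2 TPM in venous cells, so 10 of 10 epithelial cells lay above every venous cell and EPC overlapped them. For col11a1a (ENSDARG00000026165), a minor fibril chain, the epithelial level was 5.59 and the next highest 1.18, in arterial cells. The same population had col1a1b at 4.09, COL5A1 at 4.61, COL2A1 (11407) at 2.68 and COL5A2 at 2.34. Unlike these, col1a1a was found in all populations at 1.60 to 5.27, and col11a1b was highest in venous cells at 3.03. COL5A3 was found in 3 of 5 erythrocytes and in 2 cells of other populations, with a level of 3.68 in erythrocytes.

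Among the other collagens 8 of the 17 that passed were called higher in epithelial cells and 2 lower, beside the same shares of all genes. The highest member of all was col18a1a (ENSDARG00000036558), with 193, 1257 and 1874 TPM (lowest, median and highest of 6 epithelial cells) at 15-18 somites and 579, 1009 and 1574 TPM (4 cells) at 20 somites. It was found in 10 of 10 epithelial cells, a share whose exact 95% counting interval over cells is 69.2 to 100%. Outside this population its highest value was 762 TPM in a tailbud cell, and its level was 3.37 in EPC, 2.59 in the tailbud population and 1.67 or less in the others. Collagen VII forms the anchoring fibrils that hold skin to the tissue under it. Its genes col7a1 (ENSDARG00000021720) and col7a1l (93135) had epithelial levels of 4.32 and 7.59, and col7a1 was detected in 0 of 42 endothelial cells. The fibril-associated collagens col14a1, COL12A1 (19601) and col16a1 had epithelial levels of 7.17, 4.58 and 4.38, and col28a2a, a collagen of type XXVIII, reached 7.48. For col14a1 (ENSDARG00000005762) the epithelial cells held 28.9, 174 and 520 TPM at 15-18 somites and 21.7, 153 and 789 TPM at 20 somites, and 1 macrophage held 398 TPM. COL8A2, a short-chain collagen, and col19a1 (76163) were the members of this group called higher in endothelial cells, with differences of 1.77 and 1.28. COL8A2 was highest in venous cells at 3.57, with 0, 31.4 and 167 TPM at 15-18 somites and 0.319, 3.80 and 241 TPM at 20 somites.

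**Figure D5:**
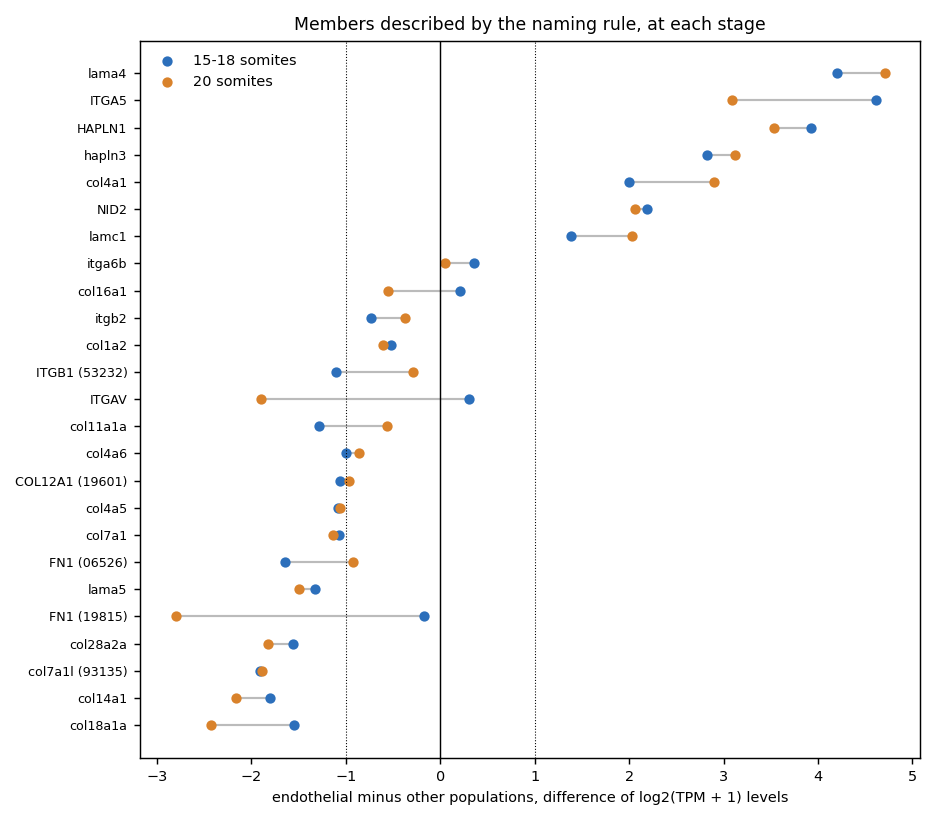
Difference of level between the endothelial and the other populations, on the log2 scale, at 15-18 somites (blue) and at 20 somites (orange) for 25 of the described members, with dotted lines at -1 and 1, the size needed for a call. The gene lama4 has the highest average, with points at 4.21 and 4.71, and ITGAV has its points on either side of 0, at 0.30 and -1.90.

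Among the integrin alpha chains ITGA5 (ENSDARG00000006353) marked nearly every endothelial cell. It was detected in 8 of 8 EPC (14.8, 118 and 1338 TPM), 4 of 4 venous (72.8, 74.8 and 207 TPM), 9 of 10 arterial (0, 138 and 619 TPM) and 2 of 2 EC2 cells (56.0 and 97.0 TPM) at 15-18 somites. At 20 somites it was detected in 6 of 6 EPC (10.5, 68.0 and 312 TPM), 4 of 4 venous (3.54, 26.5 and 55.9 TPM), 3 of 3 arterial (12.6, 220.4 and 476 TPM) and 5 of 5 EC2 cells (3.83, 36.7 and 389 TPM). The values overlapped among the 4 populations, whose levels ran from 5.37 in venous to 6.73 in arterial cells. Epithelial cells reached 4.62, with 3 of 6 cells at 15-18 somites and 4 of 4 at 20 somites. In the tailbud population it was detected in 14 of 28 cells, with a level of 2.88 and 32.9% of the integrin sum, and in macrophages the level was 1.21. The endothelial difference of ITGA5 was 4.61 and 3.08. It took 65.3% of the integrin sum in EPC and 45.9% in arterial cells.

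The alpha6 genes were split between populations. In arterial cells itga6a (ENSDARG00000042282) was detected in 10 of 10 cells at 15-18 somites (1.94, 12.4 and 405 TPM) and in 2 of 3 at 20 somites (0, 1.89 and 377 TPM). It was found in 0 of 10 epithelial cells. In those cells itga6b (ENSDARG00000069946) was detected in 5 of 6 (0, 116 and 462 TPM) and 4 of 4 (1.39, 186 and 347 TPM). In venous cells it was detected in 3 of 4 at either stage, with up to 195 and 276 TPM, and its levels were 6.04 in epithelial, 3.87 in venous, 2.49 in EC2 and 0.27 in arterial cells. In 10 of 13 arterial cells itga6a was found alone, and in 9 of 10 epithelial cells itga6b was, so each population carried mainly 1 of the 2 genes. Of the arterial cells 11 of 13 had itga6a with lama4, and of the epithelial cells 9 of 10 had itga6b with lama5. Both counts follow from the single genes and show no pairing. In arterial cells itga6a and lama4 were each found in 12 of 13, and lama5 was found in every epithelial cell. The arterial level of itga6a was 3.85 with all cells and 2.33 without the 14 cells with endothelial and other markers.

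ITGA9, which in mammals binds tenascin and other matrix ligands, was called higher in endothelial cells with a difference of 2.09 at both stages, but it rested on few cells. It was found in 13 of 42 endothelial and 3 of 54 other cells, and in EC2, where its level was highest at 3.43, it was found in 1 of 2 cells at 15-18 somites and 2 of 5 at 20 somites, at up to 339 and 223 TPM. Without the 14 cells its EC2 level was 1.32 and the venous level, at 3.49, was the highest. ITGAV, whose chain binds fibronectin and vitronectin, was highest in epithelial cells at 4.96, and itga3b, a laminin receptor chain, was found in 7 of 10 epithelial cells, 1 macrophage and none of the other cells.

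In endothelial cells the beta1 genes lay far below ITGA5. The 3 genes named ITGB1, which encode the beta1 partner of alpha5, summed to more than 1 TPM in 19 of 42 endothelial cells. Their median sum there was 0.572 TPM beside a median of 81.2 TPM for ITGA5. By population the median sums were 67.1 TPM in epithelial, 36.6 TPM in arterial and at most 0.343 TPM in the other populations. ITGB1 (53232, ENSDARG00000053232) was called higher in epithelial cells, with a level of 3.86, and ITGB4, the partner of alpha6 in skin attachment, was as well, with 3.16. In 6 of 10 epithelial cells ITGB4 and itga6b were detected together.

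Macrophages were marked by the leukocyte integrins. The beta2 gene itgb2 (ENSDARG00000016939), the common chain of leukocyte integrins, was detected in 2 of 2 macrophages at 15-18 somites (3.88 and 141 TPM) and 9 of 9 at 20 somites (1.87, 76.9 and 473 TPM). It was also found at low values in most populations, with levels of 1.0 to 2.11 against 5.23 in macrophages, and it took 44.9% of the integrin sum in macrophages. The alpha partners itgam.1 and itgam.2 had macrophage levels of 1.87 and 2.30, and itgam.2 was found in 7 of 9 macrophages at 20 somites and 0 of 2 at 15-18 somites. The alphaE gene itgae.2 was the other member called higher in macrophages, at 2.94. Neutrophils use the same integrins, and lyz, the neutrophil marker that was matched, was above 1 TPM in 0 of 96 cells.

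Among the endothelial populations 8 members were called between arterial and venous cells, 4 of them basement membrane genes. Called higher in arterial cells were col4a1, col4a2, LAMB1, NID2 and itga6a (5 of 67, 7.46%, all genes 5.03%), and called lower were col11a1b, COL8A2 and itga6b (4.48%, all genes 5.16%). The differences at 15-18 and 20 somites were 3.94 and 2.87 for col4a1, 3.01 and 1.61 for NID2, 3.22 and 1.76 for itga6a and -3.94 and -3.27 for itga6b. The 15 basement membrane genes averaged 0.97 higher in arterial cells, where all genes averaged 0.0026. For hapln3 and lama4 the stages were unlike, at 0.18 and 6.45 and at 0.54 and 4.89, so neither was called, and the 20 somite values rested on 3 arterial and 4 venous cells. Without the cells with endothelial and other markers 3 members were called higher, with col1a1a gained and col4a2, LAMB1 and itga6a lost. Of the basement membrane genes only col4a1 and NID2 then remained higher. Again 3 were called lower, with COL8A2 lost and col15a1b, itself a basement membrane gene, gained.

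Few members were called between EC2 and arterial cells, and which ones depended on single cells. ITGA9 and itga6b were called higher in EC2 (2.99%, all genes 8.51%), with differences of 1.92 and 2.65 and of 1.60 and 2.84 at the stages. Called lower were lama4 (-1.16 and -2.83) and ITGB1 (71863) (-2.29 and -1.04), again 2.99%, where all genes gave 3.93%. For hapln3 the difference was 3.0 and 0.38, for NID2 0.25 and 3.62, for HAPLN1 1.74 and 0.78 and for col4a1 -0.71 and 0.55, none of them called. Without the 14 cells EC2 at 15-18 somites was left with 1 cell and arterial at 20 somites with 2. The calls then became 5 higher, of col4a1, COL8A2, NID2, HAPLN1 and itga6b, and 0 lower.

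EPC had lower levels of some members that were high in arterial and EC2 cells. The HAPLN1 level of EPC (6.94) was near that of arterial cells (6.74) but below that of EC2 (8.0). Against the other 3 endothelial populations col4a1, col4a2, lama4, hapln3 and itga6a were called lower (7.46%, all genes 4.3%), with averages of -2.90, -2.26, -1.38, -3.25 and -2.29. COL2A1 (11407), col1a2 and col18a1a were called higher (4.48%, all genes 3.88%), by 1.19, 1.78 and 2.61. These 3 genes were also called higher in epithelial cells. Of 14 EPC, 3 had at least 2 epithelial markers above 10 TPM (1 with krt8 left out). At least 1 such marker was found in 13 EPC, but in only 3 with krt8 left out. In the 3 EPC with at least 2 such markers, krt8 included, col18a1a was detected in 3 of 3 at 17.4 to 236 TPM. In the other 11 EPC it was detected in 4, at up to 159 TPM. For col1a2 the counts were 2 of 3 and 4 of 11, and for COL2A1 (11407) they were 1 of 3 and 5 of 11. Without the 14 cells col18a1a was still called higher, with an average of 2.31. COL2A1 (11407) was not, since its difference at 15-18 somites was 0.96, although its average was then 1.47, and col1a2 was not, with 1.51 and 0.80 at the stages. In that setting 8 members were called lower, itga6a no longer among them.

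Averaged over the 8 populations, the stages differed little. By this average 0 of 67 members differed by 1 or more between 20 and 15-18 somites in either direction. Of all genes 3.11% were higher and 3.72% lower by that much. Opposite changes can cancel in such an average, and within a population the stages could differ more, as for NID2 in arterial cells. No test was possible with 1 sample per stage. The largest averages were -0.98 for FN1 (06526) and 0.70 for itgam.2, and 60 of 67 lay within 0.5. The matrix genes averaged -0.0077 and the integrin genes -0.020.

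Partners of these genes, listed by function, were measured in the same cells, but the lists were matched by symbol only in part, with 8 of 20 collagen processing, 13 of 27 integrin adaptor, 6 of 19 protease and 11 of 16 other receptor genes found. Of 3 basement membrane partners hspg2, the gene of perlecan, and sparc, a collagen-binding matrix glycoprotein, were called higher in endothelial cells, by 2.33 and 2.81. Their highest levels were in arterial cells at 4.29 and 8.07, and sparc also reached 7.76 in epithelial cells. Of 13 matched integrin adaptor genes 11 passed the filter, of which 4 were called higher and 2 lower, where 8.56% and 5.29% of all genes were. The 4 were ilk, the integrin-linked kinase (1.87), its partner lims1 (1.90), the focal adhesion kinase gene ptk2ab (1.90) and the kindlin gene fermt2 (4.62). The 2 were ptk2bb, found at 7.13 in epithelial cells, and the blood cell kindlin fermt3b, found at 5.37 in macrophages and 0.06 or less elsewhere. Of 6 matrix proteases, beside the same shares of all genes, mmp2, adamts9, adam8a and adam8b were called higher, by 2.89, 1.03, 1.40 and 1.27. However, the highest level of mmp2 was in epithelial cells (5.52) and that of adam8b in erythrocytes (4.61). Those of adamts9 and adam8a were in EPC (2.32) and venous cells (4.23). Called lower was mmp13a, a collagenase, with its highest level in macrophages and at most 1.92 in the other populations. Of 9 other matrix receptors that passed, sdc4, cd9a and cd63 were called higher and 0 lower, and of 6 collagen processing genes 0 were called in either direction. The median difference was 2.33 for the basement membrane partners, 1.15 for the proteases, 0.36 for collagen processing, 0.26 for the adaptors and -0.17 for the other receptors, against 0.07 over all genes.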

How the data were processed

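Single-cell libraries of 96 cells were quantified by the authors with kallisto in AltAnalyze against Ensembl release 72 (genome build Zv9). They deposited TPM values for 27931 genes, each cell summing to 1000000 TPM, and a log2 table of 13474 genes, which equalled log2(TPM + 1) to within 5e-11 and was used for this check alone. Populations came from their clustering (fold cutoff 6), as deposited. Their marker table was read for gene names and which genes it lists. Its comparison values were not used. TPM keeps no read depth, so the depth per cell is unknown.

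Symbols came from the marker table and from the gene name and RefSeq tables (20017 of 27931 genes). Genes above 1 TPM in at least 5 cells (15147) entered comparisons. The procedure was run on simulated data with small normal noise around the mean of each gene. The real cells vary far more, so that run gives no rate of false calls for these data. Python 3.11.15, numpy 2.4.6, pandas 2.3.3, scipy 1.17.1 and matplotlib 3.10.9 were used.

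Members given in full were the 24 with the largest range of population levels among those detected in at least 10 cells, plus the 2 highest of each role group, 26 in all. Other members are named because they were called, or were chosen after their values were seen. Members and lists were chosen with earlier results of these data known. Alternatives varied the pseudocount, the average, the filter, the call size, the stage and the cells. Intervals are Clopper-Pearson at 95%. Sequences are not analysed here.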

Additional observations from a re-analysis of the deposited data

Results flagged for a closer look

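The endothelial differences of the 26 members described in full and a set of list averages were screened for opposite signs at the stages. Among these 5 differences had opposite signs, with 1 sample a stage, so that the change between stages was not tested. Other contrasts were not screened, and some changed sign too, as for col4a1 between EC2 and arterial cells. Averaged over the 21 integrin genes, the endothelial populations were 0.45 above the others at 15-18 somites and -0.0012 from them at 20 somites, a change of -0.447. Averaged over the 15 basement membrane genes, EC2 differed from arterial cells by -0.22 at 15-18 somites and 0.15 at 20 somites, a change of 0.362, where EC2 had 2 and 5 cells and the arterial population 10 and 3. For ITGAV the endothelial difference was 0.30 and then -1.90, a change of -2.20. At 20 somites it was detected in 5 of 9 macrophages, 4 of 4 epithelial and 0 of 4 venous cells, against 0 of 2, 5 of 6 and 2 of 4 at 15-18 somites. For col16a1, a fibril-associated collagen, the difference was 0.21 and then -0.56, a change of -0.772. For NID1, found in 4 cells, it was 0.31 and then -0.05, a change of -0.362.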

How the results depend on the processing

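Under 18 alternatives, 21 of the 26 members described in full kept the sign of their endothelial difference, and col1a2, col16a1, NID1, ITGAV and itga6b changed it in at least 1. No paired analysis was possible because each stage was 1 sample. No value without the tailbud population exists for its own count. For the values below the cause was not tested.

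The endothelial difference of the matrix genes (0.11) became 0.31 with a pseudocount of 0.1, -0.0058 with 10, 0.072 with medians over cells, 0.061 without the filter, 0.18 with a filter of 10 cells, 0.0076 without the tailbud population and 0.15 without the 14 cells with endothelial and other markers, an alternative chosen after seeing the data. That of the integrin genes was 0.45 at 15-18 somites alone and -0.0012 at 20 somites alone. That of the basement membrane genes (0.63) was 1.13 and 0.23 with pseudocounts of 0.1 and 10 and 0.39 without the filter. For EC2 minus arterial (-0.035) it was -0.22 to 0.15 by stage, 0.00044 with stages pooled and 0.55 without the 14 cells. For arterial minus venous (0.97) it was 1.62 and 0.46 with the pseudocounts, 0.64 without the filter and 0.70 without the 14 cells. The stage difference of the matrix genes (-0.0077) was 0.033 with a pseudocount of 0.1, 0.0097 with the log of the mean and 0.0013 without the filter.

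The counts below are of members alone, without the share of all genes under the same setting. A changed count therefore does not tell whether members moved apart from all genes. The 11 endothelial higher calls became 6 with a pseudocount of 10 and 7 with a call size of 2. The 7 lower calls became 11 and 2 with pseudocounts of 0.1 and 10, 11 with the log of the mean, 13 with medians, 10 to 14 at a single stage, 12 with stages pooled, 11 without the tailbud population, 0 with a call size of 2 and 11 when the average of the stages was called. With a pseudocount of 0.1 the higher calls were 7 in EPC, 14 in arterial cells and 5 in macrophages, and 3 members were higher and 2 lower at 20 somites. With 10 they were 2 in venous cells, 4 in arterial cells, 4 in EC2 and 1 in macrophages. A call size of 2 left 1 in EPC, 1 in venous cells, 5 in arterial cells, 5 in EC2 and 1 in macrophages. With the log of the mean they were 4 in the tailbud population and 8 in EPC, and 3 were higher and 3 lower at 20 somites. With stages pooled they were 5 in EPC, 8 in venous cells and 6 in macrophages, and with the average of the stages 7, 8 and 6. At a single stage, where a call needs 1 difference instead of 2, they were 4 to 9 in EPC, 7 to 11 in venous cells, 12 to 13 in arterial cells and 4 to 7 in macrophages. Erythrocytes had 1 with a filter of 10 cells. At 20 somites 3 members were lower with medians, 1 without the tailbud population and 3 when populations were ignored.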
